A study of Rattus norvegicus with 44 samples.

Results

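The genes described here are the cannabinoid receptor gene Cnr1 and 3 genes of enzymes that make or clear its lipid ligands, Mgll, Faah and Dagla. They were selected on their log2 intensities over the 15 groups of clone and day, with earlier values of these arrays known, and their probe sets are those annotated to exactly 1 of them, so their levels are given as a description without a test. Of the 4 genes, 3 were measured, on 7 probe sets, out of 12749 genes measured in all. Cnr1 had 2 probe sets, Mgll 3 and Faah 2. Dagla was not analysed here.

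The samples were 44 cultures from 5 rat neural precursor clones, and RNA from each went onto 1 Affymetrix array. Per the labels, Ge6 is a precursor of GABAergic neurons, L2.2 a precursor of interneurons, Ge2 a nonneuronal clone, and Ctx8 and L2.3 are multipotential clones. Each clone was grown on poly-lysine and laminin in DMEM/F12 with the growth factor FGF2 (day 0), or taken 3 or 7 days after FGF2 was withdrawn into DMEM/F12 with B27 and little fetal bovine serum. This gave 15 groups of 3 sister cultures, except L2.2 at day 0 with 2. No genotype change or drug was listed for any group, and no strain or age was used here. Each clone is 1 line, and sister cultures of a line are not separate animals. Every error and p-value below therefore measures the spread between sister cultures. For standard errors and p-values this spread was estimated for each gene over all 15 groups together.

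Cnr1 encodes CB1, a receptor coupled to inhibitory G proteins of the Gi and Go type. In forebrain neurons CB1 sits largely on axons and their terminals, where it lowers calcium entry and transmitter release, and it is abundant on a class of GABAergic interneurons. Its ligands are made on demand from membrane lipids. 2-arachidonoylglycerol (2-AG) is released from diacylglycerol by diacylglycerol lipases and broken down mainly by monoacylglycerol lipase, the product of Mgll, while anandamide comes from N-acyl phosphatidylethanolamines and is broken down by fatty acid amide hydrolase, the product of Faah.

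Levels are normalised intensities on a linear scale, in the authors' units, and differences are in log2 units with their standard error (SE) from a linear model over all 15 groups. Array medians lay between 24.2 and 28.9. The 40th percentile of all values was 16.3, and a probe set below it is called dim, since the values used here carry no detection call. Arrays of the same group correlated at 0.9935 to 0.998 in log2 over all genes, each represented by its probe set of highest mean. No array was a copy of another. In RNA from a whole culture, fewer cells of a type and less RNA per cell cannot be told apart.

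Cnr1 was low in every clone at day 0 and differed widely between clones after FGF2 withdrawal. In Ge6 its brighter probe set read 13.1, 12.1 and 12.2 in the 3 cultures of day 0. At day 3 the Ge6 cultures read 798, 859 and 836, and at day 7 they read 1767, 1974 and 1771. The 3 days did not overlap in Ge6, and the day 7 cultures were the brightest of all 44 arrays for this gene.

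Ctx8 had the next highest level. Its cultures read 15.2, 19.2 and 15.5 at day 0, then 543, 378 and 407 at day 3, and 671, 793 and 735 at day 7. The days did not overlap in Ctx8 either, and all 3 of its day 7 cultures lay below every Ge6 culture of day 3.

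L2.2 read 17.2 and 18.0 at day 0, followed by 156, 162 and 172 at day 3 and by 150.2, 134 and 121 at day 7. In L2.3 the day 0 cultures read 14.0, 14.4 and 14.1. L2.3 then read 107, 134 and 186 at day 3 and 82.1, 78.3 and 60.3 at day 7. In both clones the day 3 cultures were the highest, with no overlap between days. Ge2 showed no such difference: it read 15.7, 18.0 and 16.8 at day 0, with overlapping values of 17.3, 21.3 and 18.7 at day 3 and of 18.1, 18.0 and 15.9 at day 7.

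**Figure D1:**
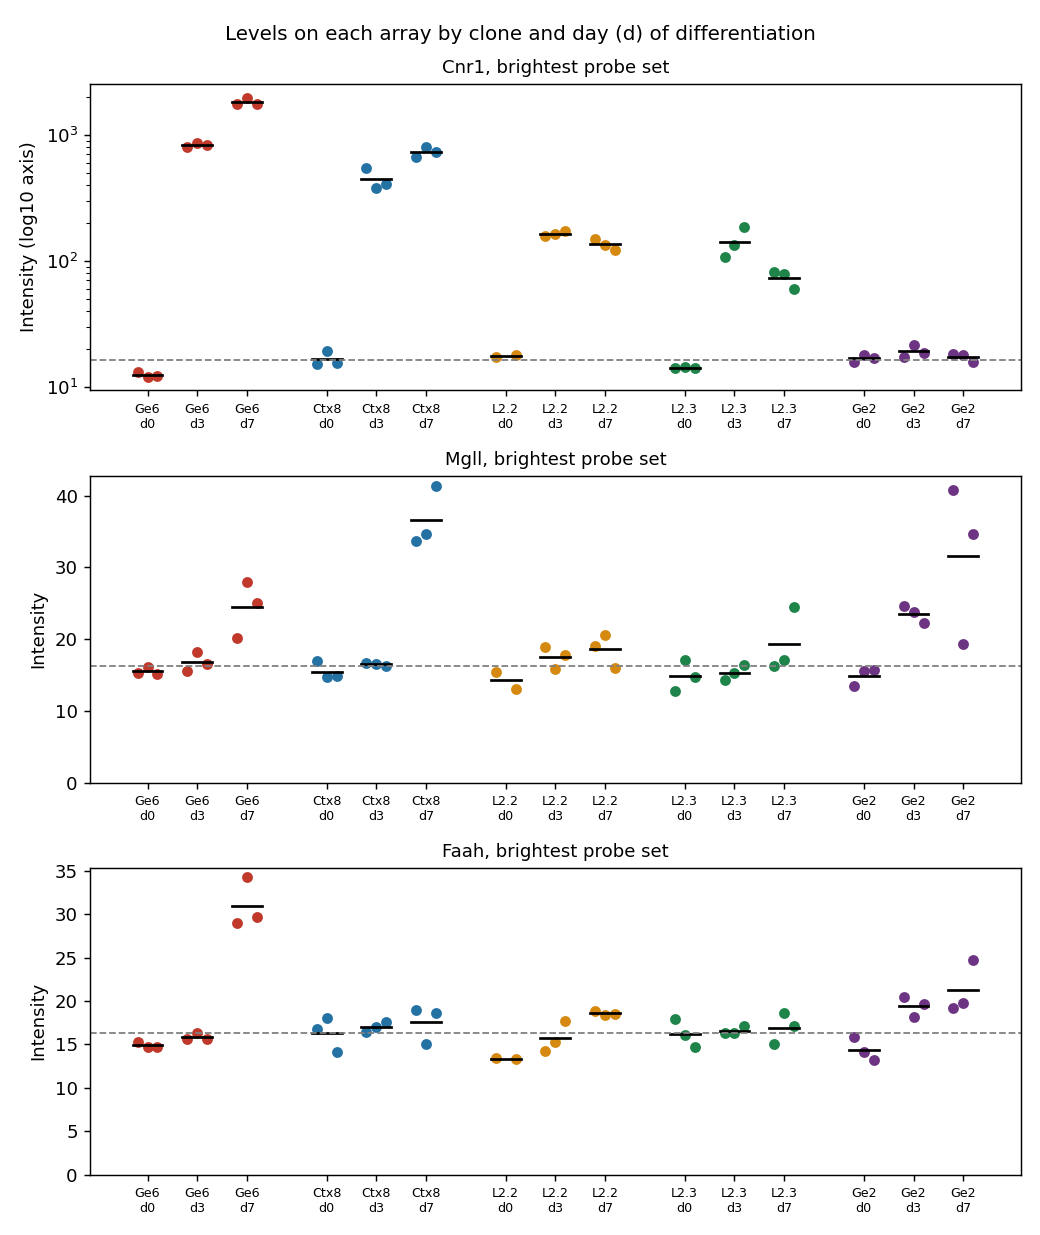
Intensity of the brightest probe set of Cnr1 (log10 axis), Mgll and Faah (linear axes) in each of the 44 cultures, by clone and day, where points are single cultures, black bars are group means and the dashed line is the dim level of 16.3. Cnr1 reaches 1837 in Ge6 at day 7, while the highest group mean is 36.6 for Mgll (Ctx8 at day 7) and 31.0 for Faah (Ge6 at day 7).

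As group means with SD over 3 cultures, Cnr1 in Ge6 stood at 12.5 ± 0.56 on day 0, 831 ± 30.4 on day 3 and 1837 ± 119 on day 7. The log2 difference from day 0 was 6.06 ± 0.14 (SE) at day 3 and 7.20 ± 0.14 at day 7, a 147-fold difference in geometric means. In Ctx8 the mean was 16.6 ± 2.2 at day 0, 443 ± 88.1 at day 3 and 733 ± 61.4 at day 7, with log2 differences of 4.72 and 5.47, the latter 44.2-fold. Both clones were thus still higher at day 7 than at day 3, by 1.14 in Ge6 and 0.74 in Ctx8.

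The other neuronal and multipotential clones reached far lower levels. L2.2 had a mean of 163 ± 7.8 at day 3 and 135 ± 14.8 at day 7, which were 9.27-fold and 7.65-fold above day 0. L2.3 had 142 ± 40.2 at day 3 and 73.6 ± 11.7 at day 7, which were 9.77-fold and 5.15-fold above day 0. From day 3 to day 7 the log2 difference was -0.92 in L2.3 and -0.28 ± 0.14 in L2.2. Ge2 had a log2 difference of 0.18 at day 3 and of 0.04 at day 7. At day 7 Ge6 exceeded the mean of the 4 other clones by 4.12 ± 0.11 on the log2 scale. Since the day 0 levels lie near the dim level, all these differences from day 0 rest on a dim starting value.

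In the order of group means, Ge6 at day 7 came first, then Ge6 at day 3, Ctx8 at day 7 and Ctx8 at day 3, with no overlap between neighbours. L2.2 at day 3, L2.3 at day 3 and L2.2 at day 7 followed, and each overlapped the next. L2.3 at day 7 stood below them and above all remaining groups. The 3 groups of Ge2 and the day 0 groups of L2.2 and Ctx8 lay between 16.6 and 19.1 and overlapped, and the day 0 groups of L2.3 and Ge6 were the lowest.

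The second probe set of Cnr1 was dimmer and gave the same order of means for the top groups. On this set, unlike the brighter one, Ge6 at day 3 and Ctx8 at day 7 overlapped. In Ge6 it read 13.3, 11.97 and 9.83 at day 0, 53.4, 46.5 and 37.0 at day 3, and 124, 164 and 144 at day 7. In Ctx8 it read 37.9, 48.1 and 30.9 at day 7, against a day 0 mean of 11.5. Its log2 difference from day 0 at day 7 was 3.62 in Ge6 and 1.74 in Ctx8, compared with 7.20 and 5.47 on the brighter set. In L2.2 and L2.3 the second set stayed dim in every group, with differences of 0.37 and 0.10 at day 7. Its day 7 means there, 14.6 in L2.2 and 13.1 in L2.3, lay below the 39.0 of Ctx8 with no overlap, and in L2.2 days 3 and 7 did not overlap day 0. The size of the differences over time in these clones therefore rests on the brighter set. Over the 15 groups the 2 sets correlated at 0.874.

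**Figure D2:**
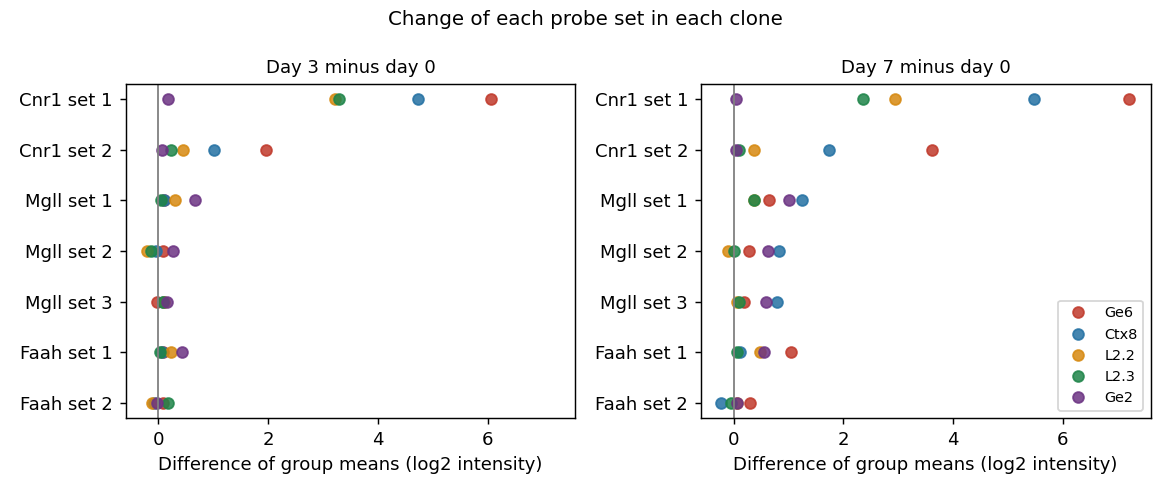
Log2 difference of group means from day 0, at day 3 (left) and day 7 (right), for each of the 7 probe sets of Cnr1, Mgll and Faah, with 1 point per clone. At day 7 both sets of Cnr1 put Ge6 first and Ctx8 second but differ in size (7.20 and 3.62 in Ge6), and the second set of Faah shows 0.30 in Ge6 where the first shows 1.05.

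The level of Cnr1 did not follow the general neuron markers alone. At day 7 the median intensity of 10 neuron markers, among them Tubb3, Map2, Syt1 and Snap25, was 876 in Ge6, 746 in L2.2, 658 in L2.3, 108 in Ctx8 and 16.5 in Ge2. Ctx8 therefore had the second highest Cnr1 level, 733 against 135 in L2.2, with a lower neuron marker median than L2.2 or L2.3. The summed level of the 10 markers ranged from 3627 to 3922 in the Ctx8 cultures of day 7, from 7417 to 8206 in L2.2 and from 6336 to 6716 in L2.3. Already at day 3 the neuron marker median was 84.1 in Ctx8 and 131 in Ge6, below 579 in L2.2 and 578 in L2.3, while Cnr1 was higher in Ctx8 and Ge6. The summed level at day 3 was 3462 to 3500 in Ctx8 and 6099 to 6392 in L2.3, but 5255 to 5704 in Ge6 overlapped the 5229 to 5558 of L2.2, so by the sum Ge6 was not below L2.2.

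Markers of GABAergic neurons, such as the glutamate decarboxylases Gad1 and Gad2 and the transporter Slc32a1, had a day 7 median over 5 measured genes of 867 in Ge6, 252 in L2.2, 98.9 in Ctx8, 15.3 in Ge2 and 11.1 in L2.3. All 5 were above the dim level in Ge6, L2.2 and Ctx8, whereas 2 of 5 were in Ge2 and 1 of 5 was in L2.3. Their sum was 55.2 to 65.3 in L2.3. In Ge2 it was 885 to 1007, against 766 to 830 in Ctx8, so by the sum Ge2 stood above Ctx8. L2.3 thus carried Cnr1 at 73.6 with these markers near or below the dim level. Markers of the oligodendrocyte lineage (8 measured, among them Olig1, Olig2 and Pdgfra) had a day 7 median of 487 in Ctx8 and 98.7 in L2.3, against 26.4 in L2.2, 19.9 in Ge6 and 12.7 in Ge2. Their summed level was 8854 to 9351 in Ctx8 at day 7 and 609 to 625 in Ge6. Astrocyte markers (8 measured) had day 7 medians of 2051 in Ctx8, 2030 in L2.3, 855 in L2.2, 642 in Ge2 and 227 in Ge6.

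Over the 15 group means, which share clones and days, the log2 level of Cnr1 correlated with the mean of the neuron markers at 0.827, with GABAergic markers at 0.723, with astrocyte markers at 0.456 and with oligodendrocyte lineage markers at 0.347. Of 8 microglial markers at most 2 were above the dim level in any group, and of 6 endothelial markers at most 3. The part of any of these cell types in the Cnr1 level was not tested.

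**Figure D3:**
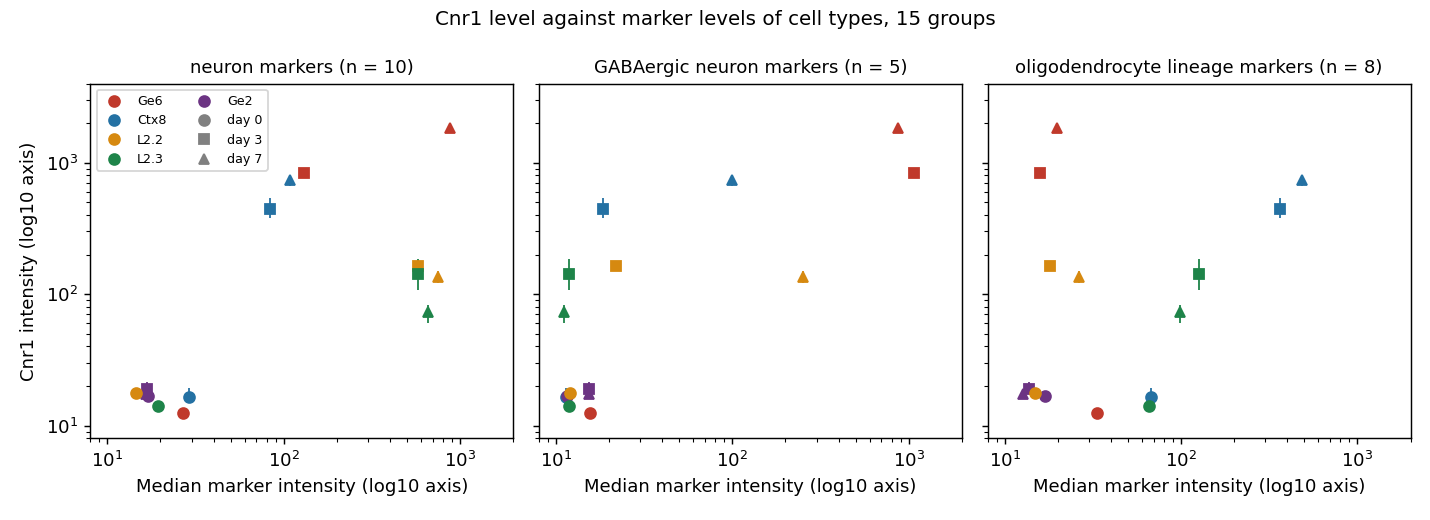
Group mean intensity of Cnr1 (vertical, log10 axis, bars from the lowest to the highest culture) against the median intensity of 10 neuron, 5 GABAergic neuron and 8 oligodendrocyte lineage markers (horizontal, log10 axis) in the 15 groups. In the neuron panel Ctx8 at day 7 lies at 108 with Cnr1 at 733, left of and above L2.2 (746, with Cnr1 at 135) and L2.3 (658, with Cnr1 at 73.6).

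Mgll, whose enzyme ends most 2-AG signalling in brain, was near the dim level in every clone at day 0 and reached its highest levels in Ctx8 and Ge2 at day 7. On its brightest probe set Ctx8 read 16.9, 14.7 and 14.8 at day 0, then 16.7, 16.6 and 16.3 at day 3, and 33.7, 34.6 and 41.3 at day 7. Days 0 and 3 overlapped in Ctx8, and day 7 stood clear of both. Ge2, the nonneuronal clone, read 13.5, 15.5 and 15.7 at day 0 and 24.6, 23.7 and 22.2 at day 3. Its day 7 cultures spread widely, at 40.7, 19.3 and 34.7, and overlapped those of day 3.

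In Ge6 Mgll read 15.3, 16.2 and 15.2 at day 0, overlapping the 15.6, 18.2 and 16.5 of day 3, and 20.2, 28.0 and 25.1 at day 7. L2.2 read 15.4 and 13.1 at day 0, between 15.8 and 18.9 at day 3, and between 16.0 and 20.6 at day 7. L2.3 overlapped at all 3 days, with 12.8 to 17.1 at day 0, 14.3 to 16.3 at day 3 and 16.2 to 24.4 at day 7.

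The log2 difference of Mgll between day 7 and day 0 was 1.24 in Ctx8, 1.02 in Ge2, 0.64 in Ge6, 0.38 in L2.2 and 0.36 in L2.3, with SEs between 0.17 and 0.19. In Ge2 this value was between 0.80 and 1.34 when single cultures were left out. At day 3 Ge2 had a difference of 0.66, and the other clones had 0.05 to 0.30. The dimmer sets showed 0.82 and 0.79 in Ctx8 and 0.62 and 0.59 in Ge2, but 0.29 and 0.18 in Ge6, and between -0.11 and 0.09 in L2.2 and L2.3. The 3 sets correlated with each other at 0.898 to 0.939 over the 15 groups.

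Faah was brightest in Ge6 at day 7. Its brighter probe set read 15.3, 14.7 and 14.8 in Ge6 at day 0, then 15.6, 16.3 and 15.6 at day 3, and 29.0, 34.3 and 29.6 at day 7. The day 7 cultures of Ge6 lay above all other cultures, and the difference from day 0 was 0.09 at day 3 and 1.05 ± 0.10 at day 7. In the same clone Cnr1 was already at 831 on day 3, when Faah was still dim.

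Ge2 had the second highest level of Faah, with 15.9, 14.1 and 13.3 at day 0, 20.5, 18.2 and 19.7 at day 3 and 19.2, 19.8 and 24.7 at day 7. The later days of Ge2 overlapped each other and not day 0, and their log2 differences were 0.43 and 0.55. L2.2 read 13.4 and 13.3 at day 0, between 14.3 and 17.7 at day 3, and 18.9, 18.4 and 18.5 at day 7, a difference of 0.47 ± 0.11. In Ctx8 and L2.3 all 3 days overlapped between 14.1 and 19.0, with day 7 differences of 0.11 and 0.06.

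The second probe set of Faah was dim in every group but Ge6 at day 7, where its mean was 17.3 ± 0.82. Its day 7 difference was 0.30 in Ge6, -0.24 in Ctx8 and between -0.05 and 0.06 in the other clones. The 2 sets of Faah correlated at 0.611 over the 15 groups. The values of Faah therefore rest on 1 probe set at low intensity.

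The 3 genes did not share a pattern over the groups. The log2 group means of Cnr1 correlated with those of Mgll at 0.352 and of Faah at 0.468, and Mgll correlated with Faah at 0.605, each over 15 groups. Mgll correlated with astrocyte markers at 0.621 and with neuron markers at 0.163. Faah correlated with GABAergic markers at 0.575 and with neuron markers at 0.450. Levels of different probe sets are not on a common scale, so these genes are compared by their patterns only.

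The genes most like each of them in pattern were the 5 with the highest correlation over the 15 groups among 3814 genes that varied and were not dim throughout. For Cnr1 these were Kirrel3 (0.952), a cell adhesion protein of neurons, Gnao1 (0.942), the alpha subunit of Go, the kinase gene Prkcz (0.938), Atcay (0.938) and the amyloid precursor-like gene Aplp1 (0.938). The geometric mean of Kirrel3 went from 16.5 at day 0 to 102 at day 7 in Ge6 and from 16.4 to 58.0 in Ctx8. In L2.2 it went from 18.5 to 25.4 and in L2.3 from 17.6 to 24.8, so Ctx8 was again above both.

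For Mgll they were Angptl4 (0.934), which encodes a secreted inhibitor of lipoprotein lipase, Rab11fip5 (0.887), the glycolytic genes Hk1 (0.878) and Pfkm (0.856), and Stim1 (0.854), a calcium sensor of the endoplasmic reticulum. Angptl4 went from 13.5 to 213 in Ctx8 and from 17.0 to 64.8 in Ge2. For Faah they were Ankrd12 (0.949), Atl1 (0.914), the AMPA receptor gene Gria1 (0.896), Znfx1 (0.878) and Prkar1b (0.849), a regulatory subunit of protein kinase A. Gria1 went from 9.10 to 74.4 in Ge6 and was at most 14.8 in the other clones at day 7. Each list was picked for its likeness, and the highest of many correlations over 15 groups can be high by selection.

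Other genes of ligand synthesis, breakdown, transport and receptor handling were taken from a list of 34, of which 27 were measured and 12 were dim in every group. A gene was called changed at an adjusted p below 0.05 in limma, with Benjamini-Hochberg adjustment over all 12749 genes. Between day 0 and day 7 the list had 8 genes higher and 5 lower in Ge6, where 59% of all genes were called, 24% higher and 35% lower. In Ctx8 it had 9 higher and 3 lower, beside 25% and 31% of all genes (55.9% in all). In L2.2 it had 10 higher and 4 lower, beside 21.5% and 30.3% (51.8%), and in L2.3 9 higher and 6 lower, beside 22% and 26.9% (48.9%). Ge2 had 9 higher and 5 lower, beside 27% and 33.3% (60.3%). The list's median log2 difference was -0.035 in Ge6, 0.0039 in Ctx8, 0.050 in L2.2, -0.066 in L2.3 and -0.047 in Ge2, beside medians over all genes of -0.063, -0.058, -0.066, -0.048 and -0.060. With both directions together, the list had from 12 to 15 of its 27 genes called in each clone, beside 48.9% to 60.3% of all genes. In every clone more listed genes were higher than lower, while more of all genes were lower. Whether the list differs from all genes in this was not tested.

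At day 3 the list had 4 genes higher and 5 lower in Ge6, where 20.5% of all genes were higher and 28.6% lower (49.1% called). Ctx8 had 9 higher and 3 lower, beside 24% and 29.7% of all genes (53.7%), and L2.2 also had 9 and 3, beside 19.8% and 27.7% (47.5%). L2.3 had 8 higher and 6 lower, beside 20% and 26.3% (46.3%), and Ge2 had 9 and 7, beside 27.5% and 32.4% (60%). The split between higher and lower depended on scaling for some of these. With all arrays shifted to 1 median, the day 7 counts were 9 higher and 9 lower in Ctx8 and 7 and 11 in L2.3, and Ge6 at day 3 had 5 and 4. With quantile normalization Ge6 at day 7 had 9 and 3. The shift moved the median of all genes by 0.11 for Ge6 at day 3 and by -0.13 for L2.3 at day 7. The share of all genes called was not counted under either scaling, so these moves cannot be called particular to the list.

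Of the genes of 2-AG synthesis, Plcb1 rose by day 7 in Ge6, Ctx8, L2.2 and L2.3. It encodes a phospholipase C that forms diacylglycerol, the precursor of 2-AG. In Ge6 the mean went from 38.9 ± 9.1 (range 28.9 to 46.8) to 945 ± 16.6 (926 to 958), a log2 rise of 4.63 ± 0.13 (limma adjusted p = 4.2e-26). In Ctx8 it went from 51.7 to 626, a rise of 3.60. L2.2 started higher, at 164, and reached 470.3 (1.53), and L2.3 went from 70.6 to 160.2 (1.20). In Ge2 Plcb1 fell by 0.72, from 41.0 to 24.6. The day 7 change of Plcb1 differed between clones (limma F test, adjusted p = 7.1e-23).

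Daglb encodes the diacylglycerol lipase related to that of Dagla, which releases 2-AG. It fell by 1.06 ± 0.12 in Ge2 at day 7, from 66.6 to 32.1, and fell by 0.60 in L2.2, from 64.9 to 42.9. In Ge6 its values were 42.4 and 45.9, a difference of 0.13 (limma adjusted p = 0.39), and in Ctx8 and L2.3 the differences were -0.27 and -0.15, which did not pass the test. Plcb4 rose by 1.75 in Ge6, 1.49 in Ge2 and 0.73 in L2.2, and fell by 0.64 in L2.3. Plcb3 fell in Ge6 (-0.90), Ctx8 (-0.67) and L2.3 (-1.12).

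Of the other 2-AG hydrolases, Abhd6 rose at day 7 in 4 clones, by 1.07 in Ctx8, 0.84 in Ge6, 0.62 in L2.3 and 0.58 in Ge2. In L2.2 its difference was -0.16 (limma adjusted p = 0.27). Abhd12 rose by 1.17 in Ctx8 and 1.16 in Ge2, from 83.8 to 188 and from 57.9 to 129, and by 0.42 in Ge6 and 0.57 in L2.3. Its rise of 0.35 in L2.2 did not pass without the day 0 culture numbered 3 (0.32) or the day 7 culture numbered 1 (0.25). Ctx8 and Ge2 were thus the clones with the highest day 7 differences for both Mgll and Abhd12. Ptgs2, the cyclooxygenase that can oxidise 2-AG and anandamide, was dim or nearly so throughout. It fell in Ge2 from 19.5 to 8.74 (a log2 difference of -1.15) and in L2.3 from 16.1 to 8.40 (-0.93). Smaller falls were called at day 7 in Ge6 (-0.38) and Ctx8 (-0.26).

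Among genes of anandamide synthesis, Abhd4 and Plaat3 rose in all 5 clones and least in Ge6. Abhd4 encodes a lipase that acts on N-acyl phosphatidylethanolamines. It rose from 210.0 to 515 in Ge6 (1.29), from 530.3 to 2884 in Ctx8 (2.44) and from 347 to 3097 in Ge2 (3.16). At day 7 Ge6 was lower than the mean of the other clones by a log2 difference of -1.98 ± 0.06 (limma adjusted p = 3.4e-26). Plaat3, a phospholipase and acyltransferase known best from fat tissue, went from 13.7 to 826 in Ctx8 (5.91 ± 0.18), from 14.8 to 461 in Ge2 (4.98) and from 12.2 to 363 in L2.3 (4.87). In L2.2 it rose by 3.21, to 113, and in Ge6 by 1.08, to 25.0. Gde1, a glycerophosphodiesterase that can release anandamide, rose by 1.10 in Ge2, 0.93 in Ctx8, 0.80 in L2.3 and 0.38 in L2.2. In Ge6 its means were 446 and 450.5, a difference of 0.015 (limma adjusted p = 0.87).

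**Figure D4:**
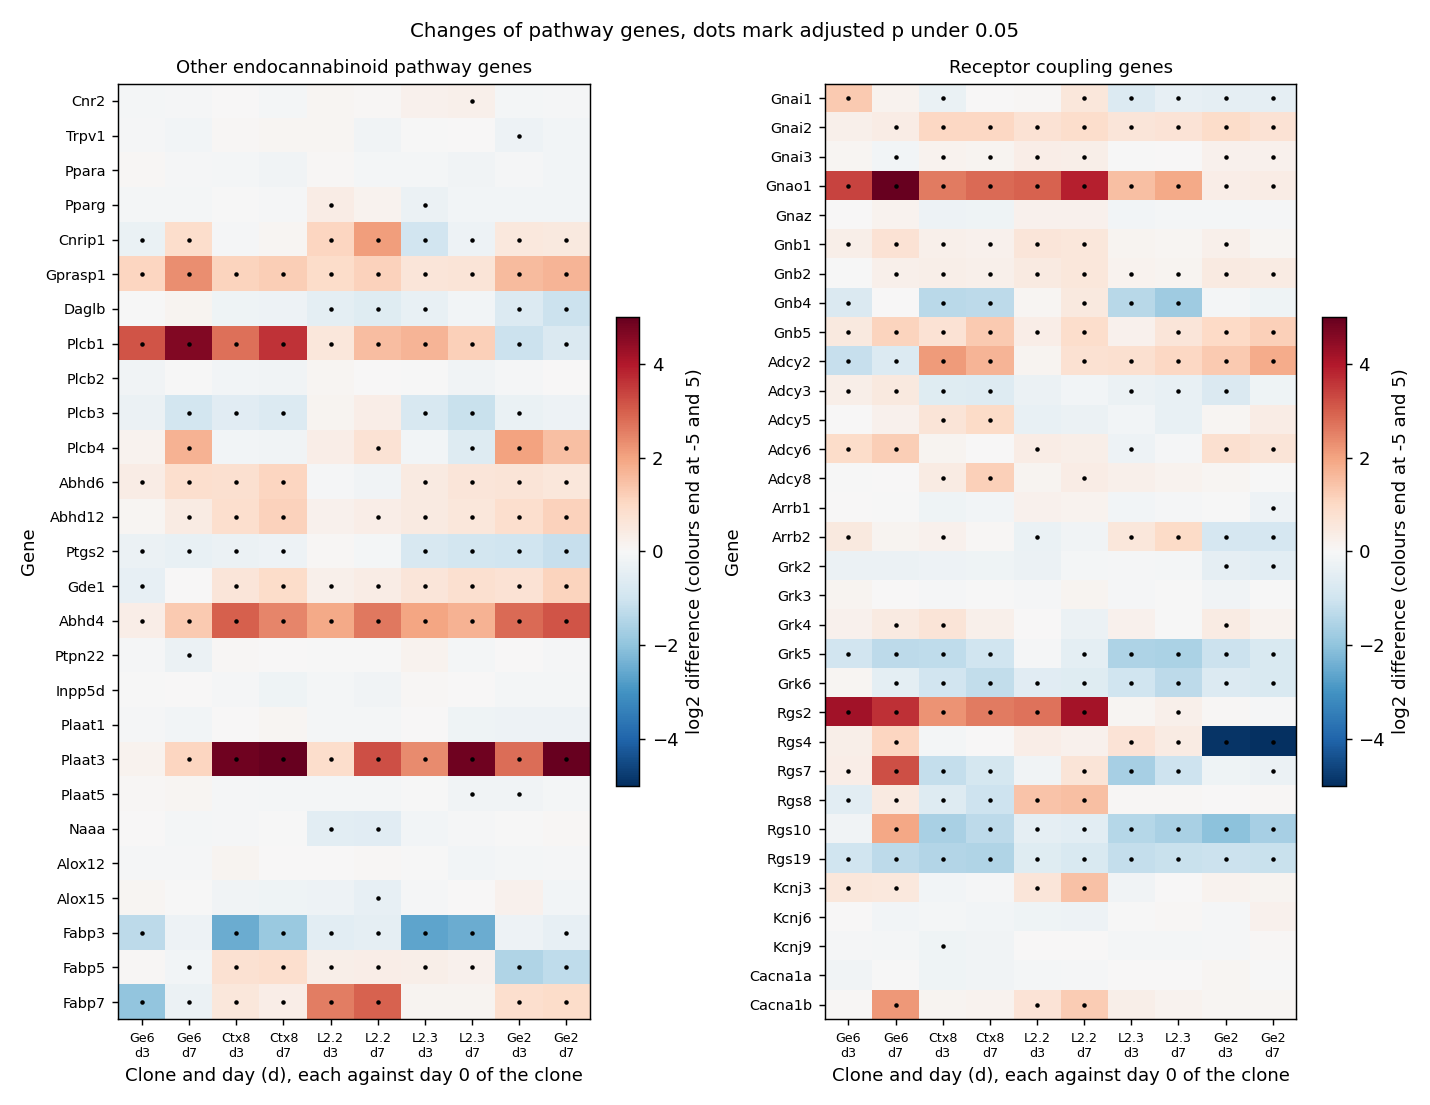
Log2 difference from day 0 at days 3 and 7 in each clone for the 27 measured genes of the endocannabinoid list (left) and the 32 of the receptor coupling list (right), where colours end at -5 and 5 and dots mark an adjusted p under 0.05. At day 7 Plcb1 is highest in Ge6 (4.63) and Ctx8 (3.60), while Abhd4 and Plaat3 are lowest in Ge6 (1.29 and 1.08).

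At day 7 the CB1 partner gene Cnrip1, whose protein binds the receptor's tail, rose by 2.07 in L2.2, from 77.0 to 324, by 0.89 in Ge6 and by 0.49 in Ge2. It fell by 0.27 in L2.3, and in Ctx8 its difference of 0.11 did not pass the test. In Ge6 the rise came after day 3, when Cnrip1 was below its day 0 level (-0.35, limma adjusted p = 0.0008). By day 7, the next gene also rose in Ge6. Gprasp1, which sorts internalised receptors toward the lysosome, rose in all 5 clones, by 2.31 in Ge6, 1.70 in Ge2, 1.24 in Ctx8, 1.16 in L2.2 and 0.64 in L2.3. The CB2 receptor gene Cnr2 was dim in all 15 groups, with day 0 and day 7 means between 9.22 and 11.5.

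Among the fatty acid binding proteins, which carry anandamide inside cells, Fabp5 rose by 0.84 in Ctx8, to 6573, and fell by 1.29 in Ge2, to 1536. Fabp7, a marker of radial glia as well as a carrier, rose by 2.94 in L2.2, from 597 to 4592, and by 0.91 in Ge2. Fabp7 also rose by 0.32 in Ctx8 but fell by 0.30 in Ge6. Fabp3 fell by 2.47 in L2.3 and fell by 1.87 in Ctx8. The day 7 change differed between clones for 16 of the 27 listed genes (limma F test), beside 71.6% of all genes.

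At day 7 Ge6 differed from the mean of the other clones in 13 of the 27 listed genes, 6 higher and 7 lower, beside 26.1% of all genes higher and 31.3% lower (57.4% called). The highest was Plcb1, at 2.36 ± 0.10, and the lowest was Plaat3, at -3.82 ± 0.14. Shifting all arrays to 1 median, which moved the median of all genes by 0.16 here, gave 12 higher and 6 lower. The share of all genes called was not counted under this shift, so the move cannot be called particular to the list.

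The machinery that CB1 acts through was taken from a second list of 34 genes, of Gi and Go subunits, adenylyl cyclases, regulators of G protein signalling (RGS), receptor kinases, arrestins and channels, of which 32 were measured and 5 were dim throughout. At day 7 it had 15 genes higher and 5 lower in Ge6 and 15 higher and 4 lower in L2.2, beside 24% and 35% of all genes in Ge6 and 21.5% and 30.3% in L2.2. Ctx8 had 10 higher and 8 lower, beside 25% and 31% of all genes. L2.3 had 8 and 8, beside 22% and 26.9%, and Ge2 had 7 and 10, beside 27% and 33.3%. The list's median difference was 0.19 in Ge6, 0.26 in L2.2, 0.0056 in Ctx8, -0.010 in L2.3 and -0.015 in Ge2. With all arrays shifted to 1 median the counts were 8 higher and 12 lower in Ctx8 and 5 and 10 in L2.3. At day 3 the list had 10 higher and 5 lower in Ge6, beside 20.5% and 28.6% of all genes, and 11 and 4 in L2.2, beside 19.8% and 27.7%. L2.3 had 6 and 9, beside 20% and 26.3%, and Ge2 had 9 and 9, beside 27.5% and 32.4%. Ctx8 had 12 higher and 10 lower at day 3, beside 24% and 29.7%, which became 10 and 13 under that shift. For these shifted counts too, the share of all genes called was not counted.

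Gnao1, the Go subunit to which CB1 couples in neurons, rose in all 5 clones by day 7 and most in Ge6. Its Ge6 mean went from 26.0 ± 3.1 (22.5 to 28.5) to 1003 ± 16.0 (985 to 1015), a log2 rise of 5.28 ± 0.14 (limma adjusted p = 3.3e-27). It rose by 3.89 in L2.2, 2.84 in Ctx8, 1.88 in L2.3 and 0.39 in Ge2. Here L2.2, at 349, stood above Ctx8, at 218, the reverse of their order for Cnr1. Rgs2 rose by 4.15 in L2.2, 3.66 in Ge6 and 2.58 in Ctx8, and Rgs7 rose by 3.22 in Ge6, from 20.5 to 190.5, and by 0.63 in L2.2, with falls in L2.3 (-1.04), Ctx8 (-0.87) and Ge2 (-0.28).

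Rgs10 rose by 1.93 in Ge6 and had falls in Ge2 (-1.66), L2.3 (-1.61) and Ctx8 (-1.32). Its fall in L2.2 (-0.54) did not pass without the day 0 culture numbered 3. Rgs4 fell by 5.03 in Ge2, from 440 to 13.6, but rose by 1.06 in Ge6. Adcy2, an adenylyl cyclase, rose by 1.85 in Ge2, 1.70 in Ctx8, 1.03 in L2.3 and 0.78 in L2.2 and fell by 0.68 in Ge6. The receptor kinase gene Grk5 fell in all 5 clones, with -1.59 in L2.3, -1.32 in Ge6, -1.01 in Ctx8, -0.75 in Ge2 and -0.51 in L2.2. Rgs19 also fell in all 5, with -1.49 in Ctx8, -1.31 in Ge6, -1.12 in Ge2 and in L2.3, and -0.76 in L2.2. Against the other clones at day 7, Ge6 had 14 genes of this list higher and 8 lower, beside 26.1% of all genes higher and 31.3% lower, with Rgs10 (3.16), Gnao1 (3.05) and Rgs7 (2.87) the highest and Adcy2 (-2.22) the lowest. These counts were 15 and 5 with quantile normalization and 19 and 5 with the shift to 1 median, where the shares over all genes were not counted. The day 7 change differed between clones for 25 of the 32 genes, beside 71.6% of all genes.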

How the data were processed

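The deposited table holds 1 linear intensity for each of 24183 probe sets on each of 44 arrays, made with GCOS and RMA per the submitters' processing notes, whose versions are not given in the sources used here. Values ranged from 6.39 to 12734. RMA fits probe sets across arrays and compresses low values, so fold differences from a dim level are likely to be too small. The number of arrays limits the precision.

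Intensities were turned into log2 with no pseudocount. Platform annotation gave 1 gene for 17547 probe sets, several for 213 and none for 6423. Symbols were updated by gene ID for 17450 probe sets and kept for 97, which include those of Faah. Each of 12749 genes was represented by the probe set with the highest mean. The tests used limma 3.58.1 (R 4.3.3), with lmFit and eBayes over 15 group means, 29 residual degrees of freedom and no covariate, and Benjamini-Hochberg adjustment over all genes. In data simulated for Ge6, day 7 against day 0, on 12749 genes, 100 of 100 genes changed by 1 on the log2 scale were recovered and 100 of 100 changed by 2, with 10 false calls at each size. Changes smaller than 1 were not simulated, so this check does not cover the smaller changes reported here. Only 100 genes were changed at each size, whereas 59% of all genes were called in this comparison. The check therefore does not give the rate of false calls in the real data.

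The 4 genes and both lists were chosen with earlier results of these data known. Named were the members, any measured gene of the endocannabinoid list, per comparison the 3 largest rises and falls called in the coupling list, the 5 genes most alike to each member (SD of the group means of at least 0.5 in log2) and markers. Clone comparisons at day 7 share arrays with comparisons over time. Alternatives were quantile normalization, a shift to 1 median, probe sets averaged per gene, the dimmer probe sets, dim genes left out, array weights, a variance trend, separate fits, a replicate block and leaving out each culture. Outlying cultures were not tested for, since groups held 2 or 3. No sequence or coordinate was used.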

Additional observations from a re-analysis of the deposited data

Results flagged for a closer look

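The change from day 0 to day 7 differed between the 5 clones (limma F test over all 5, adjusted p below 0.05) for 16 of the 27 measured genes of the endocannabinoid list, beside 71.6% of all genes. Of these 27 genes, 12 were dim in every group. The distance between the clones with the lowest and the highest log2 change was 5.35 for Plcb1 (Ge2 and Ge6), 4.84 for Plaat3 (Ge6 and Ctx8) and 3.23 for Fabp7 (Ge6 and L2.2). It was 2.39 for Plcb4 (L2.3 and Ge6), 2.34 for Cnrip1 (L2.3 and L2.2), 2.22 for Fabp3 (L2.3 and Ge6) and 2.13 for Fabp5 (Ge2 and Ctx8). Abhd4 had 1.86, Gprasp1 1.67, Plcb3 1.44, Abhd6 1.23, Daglb 1.20, Gde1 1.09, Ptgs2 1.05, Abhd12 0.82 and Naaa 0.63. Naaa, an amidase of N-acylethanolamines, had no group mean above the dim level of 16.3, and its adjusted p of 0.034 in limma did not hold without the L2.2 culture of day 0 numbered 1, where the distance was 0.33. Ge6 was the clone with the lowest change for Abhd4, Plaat3, Gde1 and Fabp7, and with the highest for Plcb1, Plcb4, Gprasp1, Daglb and Fabp3. In the receptor coupling list 25 of 32 genes met the same test, near the share over all genes.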

How the results depend on the processing

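The size of the Cnr1 difference depended on the probe set. Between day 0 and day 7 the mean of both sets gave 5.41 in Ge6, 3.60 in Ctx8, 1.65 in L2.2 and 1.23 in L2.3, and the second set alone gave 3.62, 1.74, 0.37 and 0.10, against 7.20, 5.47, 2.93 and 2.36 on the brighter set. The cause was not tested. Leaving out single cultures, quantile normalization and the shift to 1 median kept the sign of all 4. The 24 list counts came out within 1.5 times of the reported count in all 396 recomputed counts, with the share of the reported count from 0.75 to 1.5 (Ctx8 at day 7 under the shift). Of 229 calls of single listed genes, 5 did not hold under the shift, 7 under quantile normalization, 7 when only the groups compared were fitted, 2 with a variance trend, 1 with array weights and 1 with the replicate block. Leaving out single cultures ended the call in 49 of 1944 refitted calls. Cnr2, dim throughout, turned from -0.0065 to 0.16 under the shift in Ge6 against the other clones. Replicate numbers did not pair the cultures: deviations of same-numbered cultures correlated at -0.094 to 0.170 (43 pairs, 3 above 0.1), and the replicate block moved list counts by between -1 and 1, for example from 9 to 10 for the endocannabinoid list in Ge6 at day 3. Signal near background limits Mgll, Faah and every day 0 level of Cnr1.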
